A study of Mus musculus with 4 samples.

Results

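The insulin-like growth factor axis was followed through 10 genes: the ligands Igf1 and Igf2, the receptors Igf1r and Igf2r, and the binding protein genes Igfbp2, Igfbp3, Igfbp4, Igfbp5, Igfbp6 and Igfbp7. They were chosen by symbol. Each had 1 probe set with no other gene symbol, so 10 of the 28853 probe sets and 10 of the 19938 genes on the array table are described. The study measured total RNA on Affymetrix arrays, 1 array per sample, in mouse embryonic fibroblasts (MEF), the embryonic stem (ES) line v6.5 and 2 induced pluripotent stem (iPS) lines named 178B5 and 492B4. MEF and both iPS lines had a mixed background of DBA/2, C57BL/6 and 129S4, whereas v6.5 was an F1 of 129 and C57BL/6. The iPS and ES lines shared ES cell medium and a layer of SNL feeder cells, which were treated with mitomycin-C and carried a puromycin-resistance gene. For MEF the protocol gives a serum medium and names no feeder layer. The labels used here do not say how the iPS lines were made, and describe no repeat cultures of a line.

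Igf1 and Igf2 are secreted peptides that promote growth and survival. Both signal through the tyrosine kinase receptor encoded by Igf1r, while the Igf2r product binds Igf2 at the cell surface and delivers it to lysosomes, and also carries lysosomal enzymes. Binding proteins of the Igfbp family hold the ligands outside the cell and set how much reaches the receptor; Igfbp7 binds them weakly and is often grouped with related proteins. Igf2 is expressed from the paternal allele and Igf2r, in most mouse tissues, from the maternal one. Fibroblasts are a classic source of these ligands and binding proteins, and pluripotent cells respond to the ligands through Igf1r.

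The deposited values were log values in which each probe set was centred on its own median over the 4 arrays. They show differences between arrays and no absolute level, and 1 gene's level cannot be set against another's. The log base was taken as 2. Identity was checked on defining markers. All 8 pluripotency markers (Pou5f1, Nanog, Sox2, Zfp42, Esrrb, Dppa5a, Tdgf1 and Utf1) were called higher in the lines, and all 10 fibroblast markers were below MEF in the mean of the lines, 5 of them called. The root mean square difference over all genes was 0.276 log2 between the iPS lines, 0.404 and 0.486 log2 between ES and 178B5 or 492B4, and 0.980 to 1.12 log2 between MEF and the lines.

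Against MEF, 9 of the 10 genes were lower in the pluripotent lines and Igfbp2 was higher, on every one of the 3 line arrays, except that with quantile normalization Igf2, Igfbp3 and Igfbp7 on ES were not below MEF. Over all genes 47.7% lay below MEF on all 3 lines and 30.1% above it. In limma's test of the 3 lines against MEF, with Benjamini-Hochberg adjustment over all genes, an adjusted p under 0.05 and at least 1 log2, 6 members fell and 1 rose. Without iPS 178B5, 3 fell and 0 rose, while 3.73% of all genes were called lower and 3.07% higher. In that fit 8 of the 10 members had an unadjusted p under 0.05, beside 5540 of the 19938 genes. With quantile normalization limma called no member and no other gene, and 3 members and 1269 genes had an unadjusted p under 0.05. In the fit with all 3 lines, the members that fell were Igf1, Igf1r, Igf2r, Igfbp4, Igfbp5 and Igfbp6. Over all genes 9.71% were called lower and 7.9% higher, 1936 and 1576 genes (2382 and 1254 with the arrays centred on reference genes). Igf2, Igfbp3 and Igfbp7 did not pass, although each of their line arrays was more than 1 log2 below MEF. Their 3 line values were far apart, with ES well above both iPS lines. The median difference of the 10 members was -1.99 log2, beside -0.10 log2 over all genes (-0.26 log2 over all genes with reference gene centring). With a single MEF array, each gene's own variance came from the lines alone, with 2 residual degrees of freedom. limma drew it toward a value shared over all genes, weighted as 2.39 degrees of freedom. The p-values rest on that moderated spread, not on the printed SD alone, and hold no spread between MEF cultures.

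**Figure D1:**
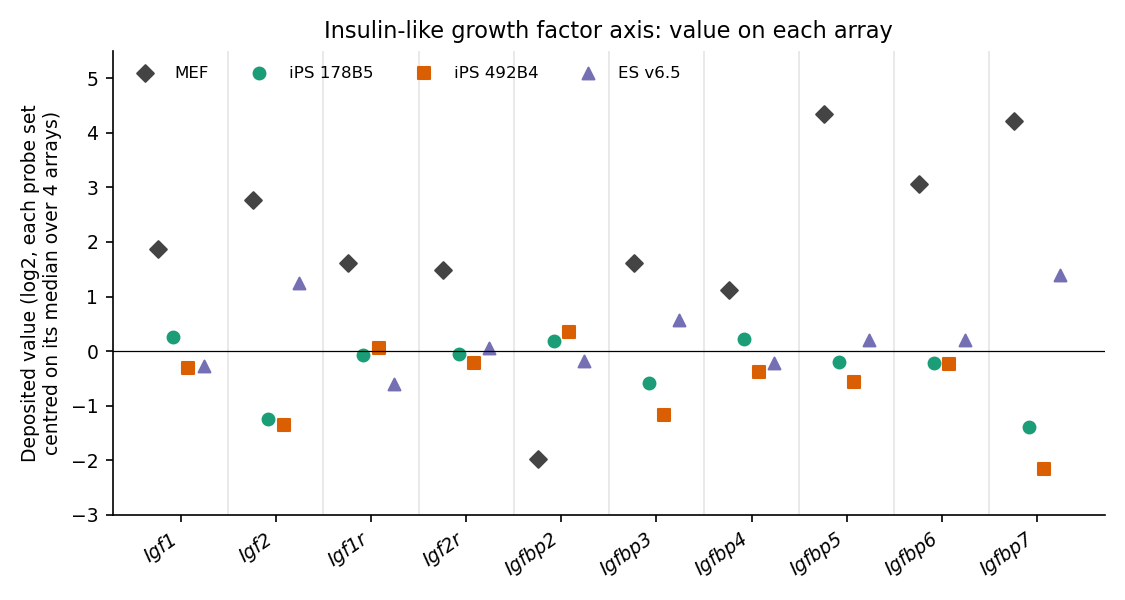
Deposited value of each member (vertical axis, log2, centred on the probe set's median over 4 arrays) on the MEF, iPS 178B5, iPS 492B4 and ES v6.5 arrays, 1 point per array. MEF is the highest point for 9 genes and the lowest for Igfbp2; Igf2, Igfbp3 and Igfbp7 have ES between MEF and both iPS lines.

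Neighbouring Igfbp genes differed in direction, which is why their start regions are shown. In the RefSeq annotation of GRCm38.p6, Igfbp2 and Igfbp5 are adjacent protein-coding genes on chromosome 1, on opposite strands, and Igfbp2 rose while Igfbp5 fell. The 250 bases before the outermost annotated start of each are given with those of Igfbp7 on chromosome 5, the member with the lowest mean difference from MEF over the lines, though it was not called and on ES Igfbp5 and Igfbp6 were further below MEF. Capitals mark GGGCGG or its reverse complement CCGCCC, the core of the GC box bound by Sp1 family factors.
Igfbp2 (chr1:72824230-72824479, plus strand): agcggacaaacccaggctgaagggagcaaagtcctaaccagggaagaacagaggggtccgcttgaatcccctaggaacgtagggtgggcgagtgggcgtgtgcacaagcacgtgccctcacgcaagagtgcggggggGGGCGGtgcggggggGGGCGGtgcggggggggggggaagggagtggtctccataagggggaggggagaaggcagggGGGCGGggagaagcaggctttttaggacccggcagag
Igfbp5 (chr1:72874866-72875115, minus strand): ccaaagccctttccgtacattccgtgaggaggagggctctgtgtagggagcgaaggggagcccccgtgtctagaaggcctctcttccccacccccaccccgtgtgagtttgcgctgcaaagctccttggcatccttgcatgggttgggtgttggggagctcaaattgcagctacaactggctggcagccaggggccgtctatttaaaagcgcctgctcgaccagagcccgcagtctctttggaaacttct
Igfbp7 (chr5:77408046-77408295, minus strand): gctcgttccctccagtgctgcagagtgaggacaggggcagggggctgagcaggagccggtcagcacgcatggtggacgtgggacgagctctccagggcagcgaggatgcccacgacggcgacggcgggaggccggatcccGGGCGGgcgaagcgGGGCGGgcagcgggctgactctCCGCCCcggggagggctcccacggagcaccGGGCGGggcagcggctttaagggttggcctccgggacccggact
The Igfbp2 window shown held 3 GC boxes, the Igfbp7 window 4 and the Igfbp5 window 0. Igfbp2 has a second annotated start, and its window held 0. Across the 14 annotated start windows of the 10 members, 6 windows of 5 genes held GGGCGG on either strand, beside 32.7% of 32851 windows of the same length over all genes. TATAAA, searched on both strands, was present in the windows of Igfbp4 (28 bases before the start) and Igfbp6 (148 bases before it), beside 12.4% of all windows. CCAAT, on either strand, was present in 3 of the 14 windows, beside 33.8% of all. The palindrome CACGTG was present in 2 windows, those of Igf2r and Igfbp2, beside 6.0% of all. CpG dinucleotides numbered 14 for Igfbp2, 10 for Igfbp5 and 26 for Igfbp7, against a median of 6 over all windows, and reached 42 for Igf1r. These matches describe the letters of the windows only.

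Among the ligands, Igf1 was lower on all 3 line arrays. Its values were 1.87 on MEF, 0.26 on iPS 178B5, -0.31 on iPS 492B4 and -0.26 on ES. The lines lay close together and apart from MEF. Igf1 fell by 1.97 ± 0.32 log2 (SD, n = 3 lines; limma adjusted p = 0.0151), which leaves 32.9% of the MEF signal on 178B5, 22.1% on 492B4 and 22.8% on ES. The antisense transcript Igf1os, looked up after the other values were seen, stood at -0.28 log2 on 178B5 and -0.30 log2 on 492B4 relative to MEF, at 0.16 log2 on ES, and was not called (limma adjusted p = 0.714).

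Igf2, the embryonic ligand, split the pluripotent lines. Its values were 2.76 on MEF, -1.24 on iPS 178B5, -1.35 on iPS 492B4 and 1.24 on ES. Both iPS arrays were low and nearly equal, and ES lay between them and MEF. Relative to MEF the difference was -4.00 log2 for 178B5, -4.11 log2 for 492B4 and -1.52 log2 for ES (0.67 log2 for ES with quantile normalization, the one scaling that turned it). These correspond to 16.0-fold, 17.2-fold and 2.86-fold less signal than MEF. Over the 3 lines the mean was -3.21 log2 with an SD of 1.47 and did not pass (limma adjusted p = 0.121). In the fit with MEF, iPS and ES as separate groups Igf2 was called for iPS against MEF (-4.06 log2, SE 0.14, limma adjusted p = 0.00187) and for ES against MEF (-1.52 log2, SE 0.17, limma adjusted p = 0.0108). The microRNA gene Mir483, which lies within Igf2, stood at -0.63 log2 on 178B5 and -0.73 log2 on 492B4 relative to MEF and at -0.08 log2 on ES (limma adjusted p = 0.32 over the lines); it too was looked up after the other values were seen.

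Both receptor genes fell. Igf1r, the signalling receptor, had values of 1.61 on MEF, -0.06 on iPS 178B5, 0.06 on iPS 492B4 and -0.60 on ES. ES was the lowest array, and the iPS lines differed by only 0.13 log2. Igf1r fell by 1.81 ± 0.35 log2 (SD, n = 3 lines; limma adjusted p = 0.021). Igf2r, the clearance receptor, had values of 1.49 on MEF, -0.06 on 178B5, -0.23 on 492B4 and 0.06 on ES. It fell by 1.56 ± 0.14 log2 (SD, n = 3 lines; limma adjusted p = 0.00931), the smallest SD of the 10 members. Airn, the noncoding RNA that overlaps Igf2r and silences its paternal allele, fell by 1.35 log2 (limma adjusted p = 0.0109). Igf2r and Airn lie on opposite strands, and whether their probe sets separate the strands was not checked here. Without iPS 178B5 neither receptor was called (limma adjusted p = 0.0691 for Igf1r and 0.0525 for Igf2r), at -1.88 and -1.57 log2; Airn was not called either (limma adjusted p = 0.0603).

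Igfbp2 was the only member above MEF in the lines. It is a binding protein with a preference for Igf2 and is abundant in early embryos. Its values were -1.97 on MEF, 0.18 on iPS 178B5, 0.35 on iPS 492B4 and -0.18 on ES. All 3 line arrays were high and MEF low. Igfbp2 rose by 2.09 ± 0.27 log2 (SD, n = 3 lines; limma adjusted p = 0.0109), or 4.44-fold on 178B5, 4.99-fold on 492B4 and 3.46-fold on ES. Without iPS 178B5 Igfbp2 stood at 2.05 log2 and was not called (limma adjusted p = 0.0514).

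Igfbp5 and Igfbp6 were the called members furthest below MEF. Igfbp5, a matrix-bound binding protein prominent in mesenchyme, had values of 4.34 on MEF, -0.20 on iPS 178B5, -0.56 on iPS 492B4 and 0.20 on ES. It fell by 4.53 ± 0.38 log2 (SD, n = 3 lines; limma adjusted p = 0.00549), leaving 4.30%, 3.34% and 5.67% of the MEF signal. Only 0.206% of all genes had a lower mean difference. Igfbp6, which prefers Igf2 over Igf1, had values of 3.05 on MEF, -0.21 on 178B5, -0.24 on 492B4 and 0.21 on ES. It fell by 3.13 ± 0.25 log2 (SD, n = 3 lines; limma adjusted p = 0.00578). For both genes the gap between MEF and the nearest line was several times the range of the lines, and both were called with any 1 line left out.

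Igfbp4 gave the smallest called fall. It is a soluble binding protein cleaved by the protease Pappa. Its values were 1.12 on MEF, 0.22 on iPS 178B5, -0.38 on iPS 492B4 and -0.22 on ES. Igfbp4 fell by 1.24 ± 0.31 log2 (SD, n = 3 lines; limma adjusted p = 0.0412), with 178B5 only 0.89 log2 below MEF. The call did not hold without 178B5 (limma adjusted p = 0.053), without 492B4 (0.0715) or with array medians set equal (0.0527).

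Igfbp3 and Igfbp7 had, like Igf2, ES between MEF and both iPS lines. Igfbp3, the main carrier of these ligands in serum, had values of 1.62 on MEF, -0.58 on iPS 178B5, -1.17 on iPS 492B4 and 0.58 on ES. Its mean difference was -2.01 log2 with an SD of 0.89 (limma adjusted p = 0.116). Igfbp7, found in vessel walls and stroma, had values of 4.21 on MEF, -1.39 on 178B5, -2.16 on 492B4 and 1.39 on ES. Its mean difference was -4.93 log2 with an SD of 1.87 (limma adjusted p = 0.0806), and only 0.0803% of all genes had a lower one. Relative to MEF, Igfbp7 signal was 48.6-fold less on 178B5, 82.7-fold less on 492B4 and 7.04-fold less on ES. The ES differences, -1.05 log2 for Igfbp3 and -2.82 log2 for Igfbp7, were 0.29 and 0.03 log2 with quantile normalization.

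The 3-group fit gave each kind of line its own comparison with MEF, in both cases against the same single MEF array. For iPS against MEF, 9 members fell and Igfbp2 rose (2.23 log2, limma adjusted p = 0.00342), while 11.2% of all genes were called lower and 9.94% higher. Over all genes 1981 were higher and 2235 lower, which became 2265 and 2022 with array medians set equal and 1617 and 2693 with reference gene centring. With quantile normalization limma called no gene in either comparison, and 8 members for iPS and 3 for ES had an unadjusted p under 0.05, with 2997 and 2227 of all genes. As deposited, the differences of the members that fell for iPS ran from -1.20 log2 for Igfbp4 (limma adjusted p = 0.0478) to -5.99 log2 for Igfbp7 (0.00281), and Igfbp3 fell by 2.50 log2 (0.00864). For ES against MEF, 7 members fell and Igfbp2 rose (1.79 log2, limma adjusted p = 0.00927), while 10.9% of all genes were called lower and 9.14% higher. Igfbp7 fell by 2.82 log2 (limma adjusted p = 0.0183). Igfbp3 at -1.05 log2 (limma adjusted p = 0.103) and Igfbp4 at -1.34 log2 (0.0605) were not called. Here each gene's own spread came from the pair of iPS arrays alone, with 1 residual degree of freedom. limma drew it toward a value shared over all genes, weighted as 2.99 degrees of freedom. The resulting spread was taken to hold for ES and MEF too.

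The comparison of iPS with ES set 2 reprogrammed lines beside 1 embryo-derived line, on 1 array. The iPS lines had the mixed background and v6.5 the F1 background, so origin, background and line cannot be told apart here. Igfbp7, Igf2 and Igfbp3 had the largest differences, with both iPS arrays below ES. Igfbp7 stood at -2.79 log2 relative to ES on 178B5 and -3.56 log2 on 492B4, a gap of 6.91-fold and 11.8-fold. Igf2 stood at -2.49 and -2.59 log2, or 5.60-fold and 6.02-fold below ES. Igfbp3 stood at -1.15 and -1.75 log2, or 2.22-fold and 3.36-fold below ES. These were the members past 1 log2 in both lines, a size that 1.09% of all genes reached downward and 0.958% upward. The order of arrays with 492B4 lowest, then 178B5, ES and MEF held for 6 members (Igf2, Igf2r, Igfbp3, Igfbp5, Igfbp6 and Igfbp7), beside 18% of all genes. The same 6 were below ES on both iPS arrays, beside 47.7% of all genes.

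In limma's test none of the 3 passed. The difference was -2.54 log2 for Igf2 (95% interval -2.94 to -2.14, adjusted p = 0.0634), -3.17 log2 for Igfbp7 (-4.17 to -2.17, adjusted p = 0.107) and -1.45 log2 for Igfbp3 (-2.26 to -0.64, adjusted p = 0.193). No gene on the array was called in this comparison by limma (0%), while 3079 genes (15.4%) and 6 of the 10 members had an unadjusted p under 0.05. With array medians set equal Igf2 was called (-2.50 log2, limma adjusted p = 0.0408). With only the genes whose range over the arrays was at least 0.5 log2, Igf2 (-2.54 log2) and Igfbp7 (-3.17 log2) were called. That range comes from the same values as the test, so the filter is not independent of it and these calls add no support.

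The other members differed less between iPS and ES. Igf1r stood 0.60 log2 above ES (95% interval 0.19 to 1.01, limma adjusted p = 0.235) and Igfbp2 0.45 log2 above it (0.02 to 0.88, adjusted p = 0.317). Igfbp5 stood at -0.58 log2 (-1.16 to 0.000293) and Igfbp6 at -0.43 log2 (-0.82 to -0.05). The Igfbp5 interval just included 0. For Igf1, Igf2r and Igfbp4 the intervals also included 0, at -0.55 to 1.03, -0.63 to 0.23 and -0.68 to 0.97 log2. The width of these intervals leaves differences of up to about 1 log2 undetermined for Igf1 and Igfbp4, whose iPS lines lay on either side of ES.

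**Figure D2:**
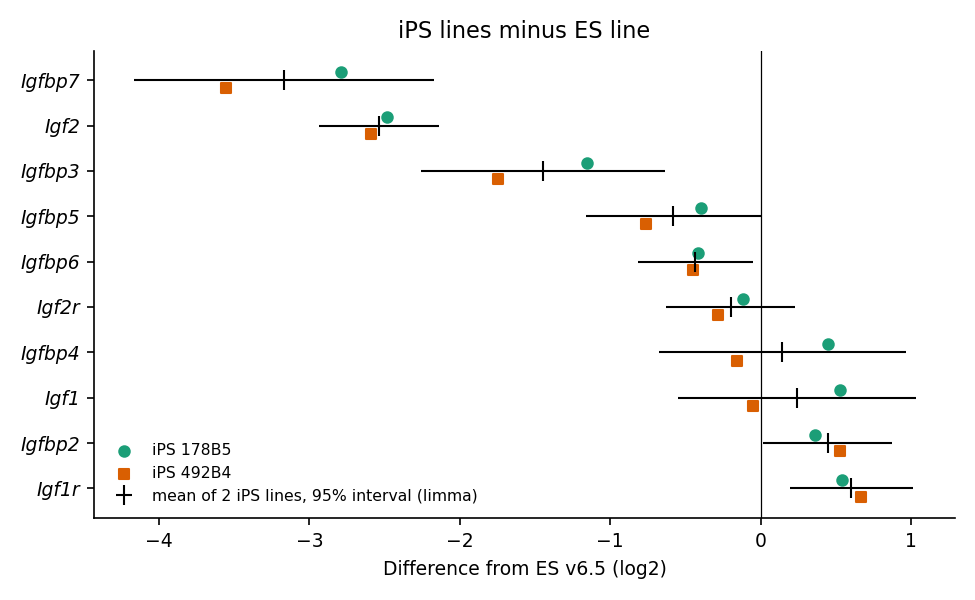
Difference of each iPS line from ES v6.5 (horizontal axis, log2) for the 10 members, with the mean of both iPS lines and its 95% interval from limma. Igfbp7, Igf2 and Igfbp3 lie below -1 log2 in both lines, and the other 7 members lie within 1 log2 of ES in both.

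Fibroblast markers moved in the same direction between these lines. Of 10 markers, 9 were higher on ES than on both iPS arrays, and their mean value was 0.69 on ES, -0.82 on 178B5, -0.98 on 492B4 and 2.93 on MEF. Relative to MEF, ES signal was 34.9% for Igf2, 48.4% for Igfbp3 and 14.2% for Igfbp7, beside 33.9% for Dcn, 28.6% for Thy1, 13.4% for Postn and 10.2% for Col1a1. On 178B5 the same genes stood at 6.23%, 21.8% and 2.06%, beside 7.26%, 7.92%, 1.22% and 3.27%. Pdgfrb, at 9.99% on ES, 5.82% on 178B5 and 13.7% on 492B4, and Fn1, at 47.5%, 45.4% and 41.4%, did not share this gap. The part of fibroblasts, feeder cells included, in the Igf2, Igfbp3 and Igfbp7 differences was not tested, and in RNA from whole cultures fewer cells of a type and less RNA per cell cannot be told apart.

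Primitive endoderm markers ran the other way, with 10 of 10 above ES in the iPS mean. Their mean values were 0.97 on 178B5, 0.37 on 492B4, -0.98 on ES and -0.56 on MEF. The probe sets of Dab2 disagreed. Relative to MEF, a Dab2 probe set stood at 0.03 log2 on 178B5, -0.06 log2 on 492B4 and 0.14 log2 on ES. The other stood at -0.32, -0.74 and -2.78 log2. The part of primitive endoderm in the member differences was not tested either. As no gene was called between iPS and ES, no marker of any list was. An unadjusted p under 0.05 was found for 8 of 10 fibroblast, 8 of 10 primitive endoderm, 3 of 6 endothelial and 2 of 6 myogenic markers, beside the 15.4% of all genes. The same held for 0 of 8 pluripotency markers and 0 of 12 reference genes.

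**Figure D3:**
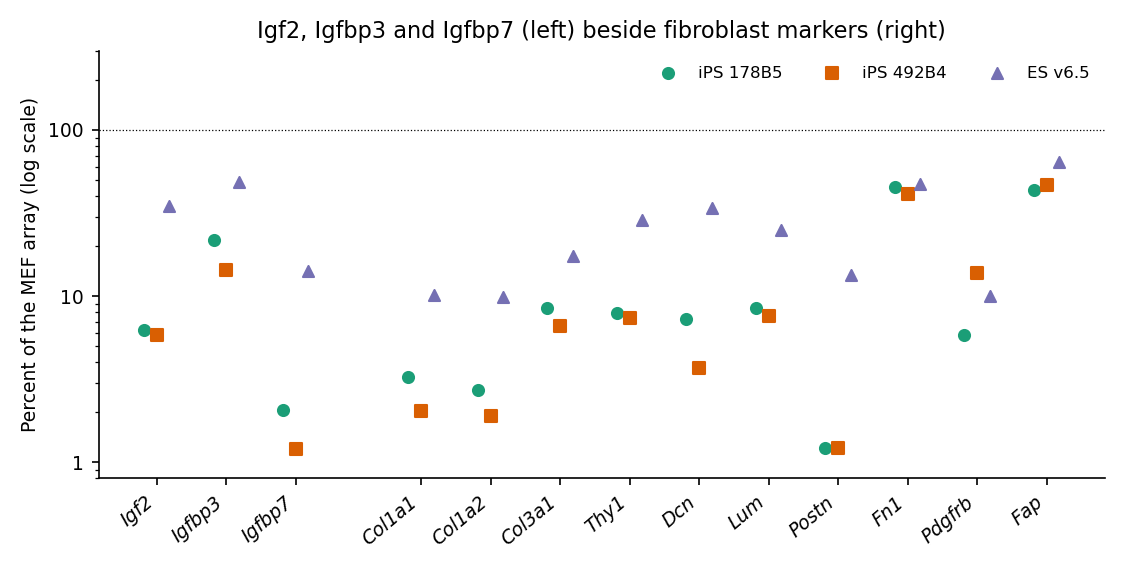
Signal as a percentage of the MEF array (vertical axis, log scale; dotted line at MEF) for Igf2, Igfbp3 and Igfbp7 on the left and 10 fibroblast markers on the right, 1 point per line. ES lies above both iPS lines for the 3 members and for 9 of the 10 markers, the exception being Pdgfrb.

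The 2 iPS lines were compared by value, with no test. Line 492B4 was lower than 178B5 for 8 of the 10 members, beside 53.1% of all genes. The differences were -0.77 log2 for Igfbp7, -0.61 log2 for Igfbp4, -0.60 log2 for Igfbp3 and -0.58 log2 for Igf1. For these 4 genes at most 2.37% of all genes had a lower difference. Igf2 at -0.10 log2 and Igfbp6 at -0.03 log2 were nearly equal, and 492B4 was higher for Igf1r (0.13 log2) and Igfbp2 (0.17 log2). No member reached 1 log2, a size that 0.321% of all genes reached downward and 0.291% upward.

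Profiles over the 3 lines were set against every other gene by the root mean square distance of the differences from MEF. Igf2 was nearest to Wnt5a, a noncanonical Wnt ligand, at 0.24 log2, and to Acta2, smooth muscle actin, at 0.25 log2. Igfbp7 was nearest to the chemokine gene Ccl7 (0.28 log2) and to Prrx1, a mesenchymal transcription factor (0.30 log2). Igfbp5 was nearest to Abi3bp (0.13 log2) and Cavin2 (0.14 log2), and Igfbp6 to Angpt1 (0.02 log2) and Vcam1 (0.08 log2). Igf2 had 1 gene and Igfbp7 0 genes within 0.25 log2, whereas Igf2r had 377, Igfbp4 180 and Igfbp2 103. The nearest genes were Tcaf1 and Smo for Igf1, Stk39 and Cgrrf1 for Igf1r, Dexi and Adcy4 for Igf2r, Zfp710 and Caprin2 for Igfbp2, Mthfd2l and Dynap for Igfbp3, and Zfp334 and Pogk for Igfbp4. With 3 differences from 1 shared MEF array, likeness here is a description only.

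Of 48 other genes of the pathway, 3 rose and 9 fell in the lines against MEF, beside 7.9% and 9.71% of all genes. Their median was -0.29 log2, against -0.10 log2 over all genes. Without iPS 178B5, 2 rose and 6 fell, beside 3.07% and 3.73% of all genes, and with quantile normalization none was called. Of 6 genes for proteins that cut binding proteins or regulate such proteases, 3 fell. Pappa, whose product cleaves Igfbp4, fell by 3.99 log2 (limma adjusted p = 0.0291). The protease gene Adam12 fell by 2.74 log2 (0.00804), and Stc1, which encodes a Pappa inhibitor, fell by 2.18 log2 (0.0243). Pappa, like Igf2, had ES between MEF and both iPS lines, at -4.69 log2 on 178B5, -4.41 log2 on 492B4 and -2.87 log2 on ES, and was not called without either iPS line (limma adjusted p = 0.07 and 0.0668).

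Of 15 receptor adaptors and brakes, 3 fell and 1 rose, beside 9.71% and 7.9% of all genes. Grb14 and Grb10, which bind the activated receptors and dampen them, stood at -2.70 and -1.89 log2. Irs1, the adaptor that links the receptor to PI3K, fell by 1.99 log2, though its 2 probe sets gave -2.99 and -0.91 log2 on 178B5. Gab1, another docking protein, rose by 1.99 log2, at 1.86, 2.07 and 2.04 log2 on the 3 lines. Irs2, at -0.01 log2, was not called (limma adjusted p = 0.981).

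Of 19 measured genes of the PI3K-AKT-mTOR relay, 3 fell and 1 rose, beside 9.71% and 7.9% of all genes. Pik3r3 and Pik3r1, regulatory subunits of PI3K, stood at -2.59 and -1.75 log2, and the kinase gene Akt1 fell by 1.52 log2. The catalytic subunit gene Pik3cb rose by 1.66 log2. Without iPS 178B5, Pik3r3, Akt1 and Pik3cb were not called (limma adjusted p = 0.0514, 0.0514 and 0.0521). Mtor at 0.39 log2 and Foxo1 at 0.19 log2 were not called.

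Of 6 other insulin and IGF system genes, 0 were called by limma and 0 had an unadjusted p under 0.05. Among all genes 9.71% were called lower and 7.9% higher, and 7529 of 19938 had an unadjusted p under 0.05. Insr, the insulin receptor gene, stood at -0.87 log2 over the lines (limma adjusted p = 0.138) and was called for ES against MEF at -1.31 log2. Igfbp1, the neighbour of Igfbp3 on chromosome 11, stood at -0.41 log2 (limma adjusted p = 0.184). Igf2bp1, an RNA-binding protein that binds Igf2 mRNA, rose by 2.54 log2 (limma adjusted p = 0.00574), and its 2 probe sets gave 2.93 and 2.55 log2 on 178B5. Igf2bp3 stood at -0.37 log2 (limma adjusted p = 0.659). Igf2bp2 and H19 were not analysed here, having no probe set of their own. A further 8 measured genes lie near Igf2 or Igf2r without being part of the pathway. Of these, Ascl2, a transcription factor, rose by 2.34 log2, Airn fell, and the remaining 6 were not called. The shares over all genes were 7.9% higher and 9.71% lower. Ins2, next to Igf2 and counted among the insulin genes, stood at -0.16 log2.

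**Figure D4:**
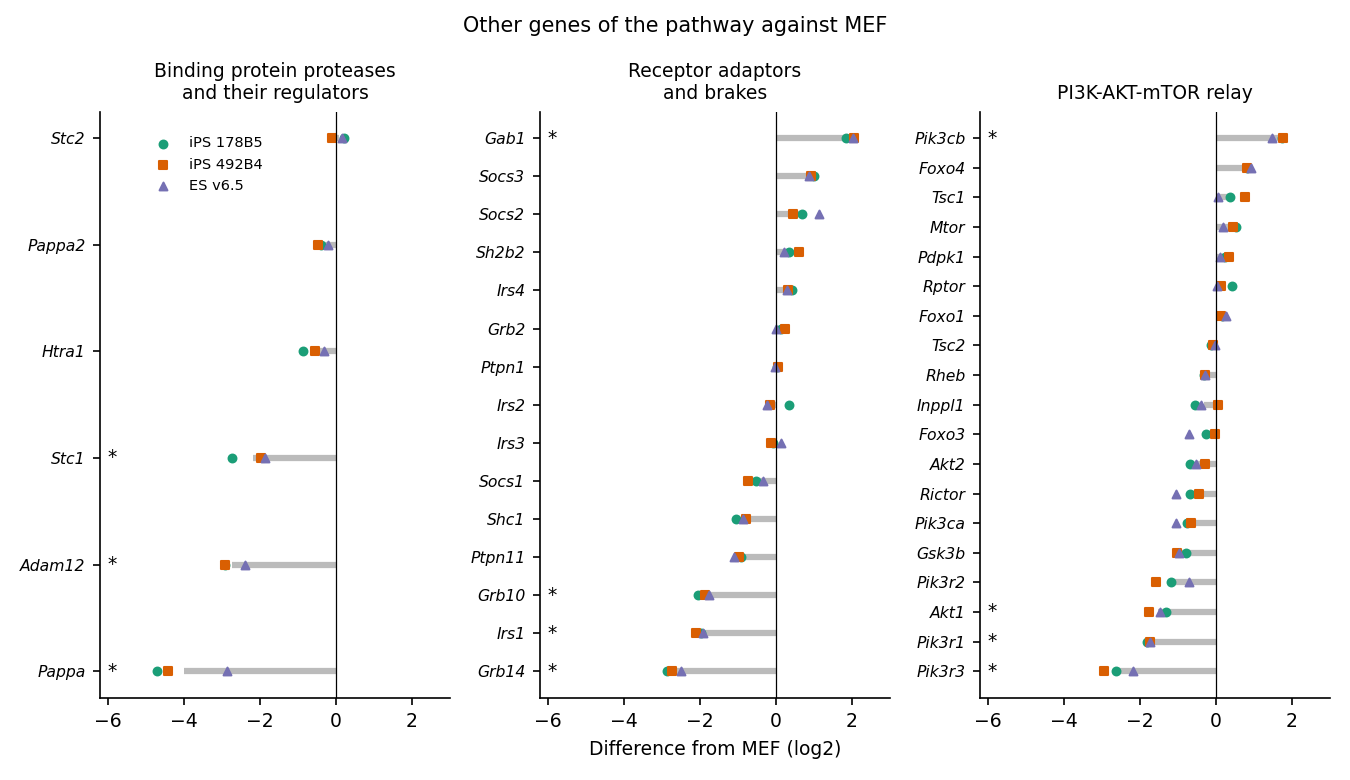
Difference from MEF (horizontal axis, log2) for genes of 3 pathway lists, with 1 point per line, a grey bar to the mean of the 3 lines and an asterisk where limma's test of the lines against MEF was called. Called genes are 3 of 6 proteases and regulators, 4 of 15 adaptors and brakes, and 4 of 19 relay genes. Among all genes 9.71% were called lower and 7.9% higher.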

How the data were processed

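Total RNA of 4 mouse samples was measured on 1-colour arrays. The authors deposited log2 values for 28853 probe sets, made with GCRMA per the submitters' processing notes, version not given in the sources used here. A base of 2, and higher meaning brighter, are assumptions. The median of every probe set over the 4 arrays was 0 within 1e-06, so levels and background cannot be read. Array medians were 0.0419 (MEF), -0.0145 (178B5), -0.025 (492B4) and 0.0158 (ES).

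The platform annotation named the probe sets: 21789 had 1 symbol, 1621 several and 5443 none; 21698 matched GRCm38.p6 genes and 0 symbols changed. Values were averaged per gene. limma 3.58.1 in R 4.3.3 fitted lines against MEF (2 residual degrees of freedom) and MEF, iPS and ES (1). The fits were tested on simulated data. Named genes were all members, up to 5 called genes per pathway list, 5 preset genes, and the 2 nearest profiles per member; Irs2, Mtor, Foxo1, Igfbp1, Ins2, Mir483, Igf1os and the single fibroblast markers were named after their values were seen. Members and lists were chosen with earlier results of these data known. Alternatives covered scaling, probe set choice, moderation, call rule, a range filter and leaving out a line. The number of arrays limits precision. Start windows came from RefSeq (GRCm38.p6; all 10 members matched), and the array data carry no coordinates.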

Additional observations from a re-analysis of the deposited data

How the results depend on the processing

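Apart from quantile normalization, every member kept its direction against MEF under each alternative. Quantile normalization gives all 4 arrays 1 common distribution, although the SD over probe sets was 0.887 on MEF and 0.195 to 0.282 on the lines. The MEF array of centred differences was thereby narrowed and the line arrays were widened. For iPS against ES, Igf2 then stood at -4.00 log2 and Igfbp7 at -4.81 log2. This scaling gave 0 for every count of calls against MEF (all genes, members, and other listed genes, 48 of the pathway and 8 neighbours). Under it Igf2, Igfbp3 and Igfbp7 turned for ES against MEF, to 0.67, 0.29 and 0.033 log2. Leaving out 1 line gave 613 (without iPS 178B5) to 1981 genes higher and 744 to 2235 lower against MEF, 0 to 1 members higher, 3 to 9 members lower, and 6 to 11 other listed genes lower. Without ES this fit is that of iPS against MEF. With 1 probe set genes only, 3 other listed genes were higher for ES against MEF, since fewer genes were tested.

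For iPS against ES, equal array medians gave 15 genes higher and 29 lower, 1 of them a member; reference centring gave 3 and 10; the range filter gave 142 and 180, with 2 members and 1 other listed gene lower; and a rule of 1 log2 in both lines without p gave 191 and 217, with 3 members and 1 other listed gene lower. The cause was not tested, and the range filter is drawn from the same values as the test. Small differences between iPS and ES changed sign with 1 iPS line left out: -0.047 to 0.53 log2 for Igf1, -0.16 to 0.45 for Igfbp4, -0.19 to 0.023 for Gab1, -0.092 to 0.0068 for Pik3r1, -0.29 to 0.16 for Akt1 and -0.017 to 0.29 for Igf2bp1. Igf2bp3 against MEF ran from -0.59 to 0.007, and for ES was -0.089 with reference centring. No paired analysis was possible because the replicate numbers only count arrays within a group and give no pairing. No filter on dim probes was possible on centred values.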
